A study of Arabidopsis thaliana with 4 samples.

Results

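Among the SHL binding regions found in both replicates of Arabidopsis thaliana seedlings, 238 of 2186 combined a low score with a midpoint outside every protein-coding gene. Genes are those of the reference table, and 58 of the 238 regions (24.4%) still overlapped a protein-coding body, some along most of their width. SHL (SHORT LIFE) is a plant chromatin protein and EBS (EARLY BOLTING IN SHORT DAYS) is its close relative. The regions were defined by measured values: peaks of both lists had to overlap by at least 1 bp, every peak in the merged region had to score under 100, and the midpoint had to lie in no protein-coding body. They were 10.9% of all common regions and 21.8% of the 1092 low-scoring ones. The comparison classes were the 632 regions outside protein-coding genes whose top peak reached 100 or more in both lists, and the 854 low-scoring regions with a midpoint in a protein-coding body. Another 74 regions outside protein-coding genes met neither score condition.

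The assay was ChIP-seq, in which an antibody recovers a chromatin protein with the DNA it sits on and that DNA is sequenced. Both ChIP samples came from whole seedlings of the Col-0 accession, about 10 days old, kept in a daily cycle of 16 h light and 8 h dark. The plants were ebs shl double mutants that carried HA-tagged SHL under the native SHL promoter, and an anti-HA antibody brought down the tagged protein. Both input samples of that line, taken without antibody, were not analysed here. No untagged line is among the samples, so no background from a mock precipitation stands beside the peaks. The labels do not say that the replicates were separate cultures, so differences between them may be technical, and whole seedlings mix all cell types.

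SHL carries a BAH domain that binds the histone mark H3K27me3, which sits on silenced genes, and a PHD finger that binds methylated H3K4, a mark of active or poised genes. Plants that lack SHL or EBS flower early. Heterochromatin around Arabidopsis centromeres holds few protein-coding genes and many remnants of transposons, and is marked mainly by other modifications. Pseudogenes are gene copies that no longer encode a working protein. The pseudogenes of the table include a member of a retroposon family, named below. How many of them are genes of transposable elements was not examined.

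Replicate 1 listed 3678 peaks scoring 20.01 to 3217.38, with a nuclear median of 39.15. Replicate 2 listed 3494 peaks scoring 20 to 3220.27, with a nuclear median of 39.89. Scores are the authors' and were not read as signal strength; where both scores of a region are set side by side, that describes the lists. Read depth is unknown from these lists, and intervals below cover counting error only.

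The low-scoring regions outside protein-coding genes fell into 3 kinds of place. In 91 of 238 (38.2%, exact 95% interval 32.0 to 44.7) the midpoint lay in a pseudogene. In 15 (6.30%, interval 3.57 to 10.2) it lay in a gene for a non-coding RNA, and in 132 (55.5%, interval 48.9 to 61.9) in no gene of the table. Of those 132 regions, 68 had a protein-coding body within 1 kb of the midpoint and 64 did not. Of all bases outside protein-coding bodies, 18.9% lay in pseudogenes, 2.85% in non-coding RNA genes and 78.2% in neither. The table may not hold every gene, so a region in no gene means none in this table. All 5 chromosomes held such regions: 58 on chromosome 1, 36 on chromosome 2, 57 on chromosome 3, 42 on chromosome 4 and 45 on chromosome 5.

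Pseudogenes and gene-poor chromosome stretches were less frequent among the low-scoring regions than among the high-scoring ones outside protein-coding genes. Pseudogenes held 38.2% of the low-scoring regions (91 of 238), against 50.3% of the high-scoring ones (318 of 632), a difference of -12.1 percentage points (odds ratio 0.611, two-sided Fisher's exact test, Benjamini-Hochberg adjusted over 5 tests, p = 0.00292). The genome was divided into 121 windows of 1 Mb, which had a median of 259 protein-coding genes each. The 20 below 50% of that median are called gene-poor. All other windows are called chromosome arms, wherever on the chromosome they lie. Gene-poor windows held 44.1% of the low-scoring regions (105), against 60.0% of the high-scoring ones (379), a difference of -15.9 points (odds ratio 0.527, exact adjusted p = 8.52e-05). A protein-coding body lay within 1 kb of the midpoint in 31.5% of the low-scoring regions (75), against 22.8% of the high-scoring ones (144). The difference was 8.73 points (odds ratio 1.56, exact adjusted p = 0.0136). Of all bases outside protein-coding bodies, 44.4% lay within 1 kb of such a body and 32.1% in gene-poor windows. Both classes were thus near coding bodies less often, and in gene-poor windows more often, than those bases.

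These tests treat regions as independent, which neighbouring regions are not. When 50% reciprocal overlap between the lists was required, none of these 3 differences passed (exact adjusted p = 0.203 for pseudogenes, 0.157 for gene-poor windows and 0.320 for nearness to coding bodies). With a threshold of 200, pseudogenes (exact adjusted p = 0.0570) and nearness (exact adjusted p = 0.0570) did not pass. With peaks of at least 30, gene-poor windows (exact adjusted p = 0.277) and nearness (exact adjusted p = 0.379) did not pass. Without regions that touch a coding body, pseudogenes (exact adjusted p = 0.139) and nearness (exact adjusted p = 0.115) did not pass. On the chromosome arms alone, the difference in pseudogene share was -9.30 points (exact adjusted p = 0.0928) and that in nearness was 1.63 points (exact adjusted p = 0.829). From the peaks of a single list, all 3 differences were larger. Replicate 2 alone gave -21.9 points for pseudogenes, -28.4 for gene-poor windows and 19.8 for nearness, and replicate 1 alone gave -17.6, -30.0 and 17.6.

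**Figure D1:**
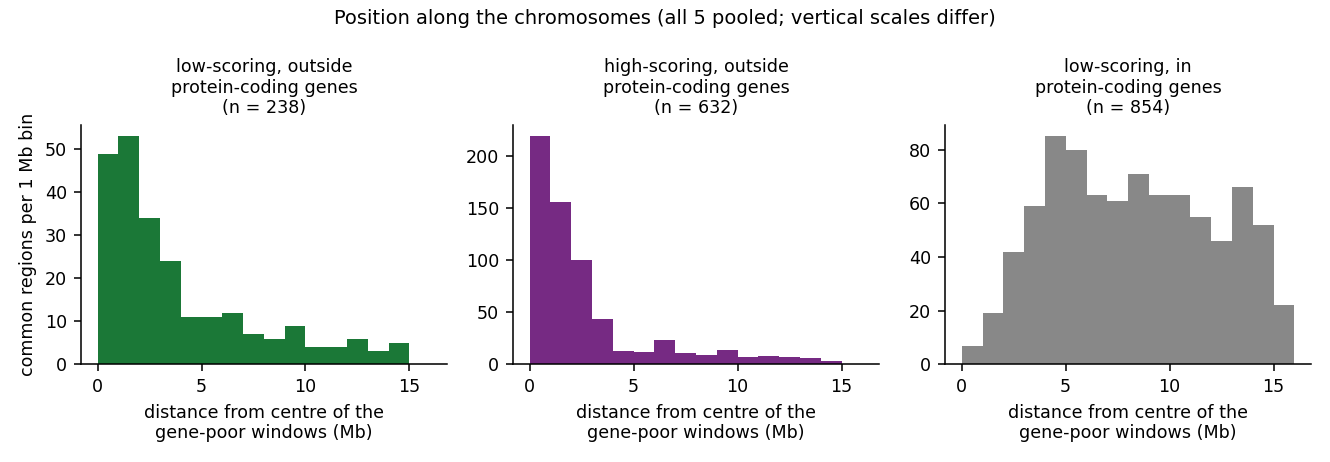
Number of common regions per 1 Mb bin of distance from the centre of each chromosome's gene-poor windows, with all 5 chromosomes pooled and separate vertical scales. Within 2 Mb of that centre lay 102 of 238 low-scoring regions outside protein-coding genes (left), 375 of 632 high-scoring ones (middle) and 26 of 854 low-scoring ones in protein-coding genes (right).

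**Figure D2:**
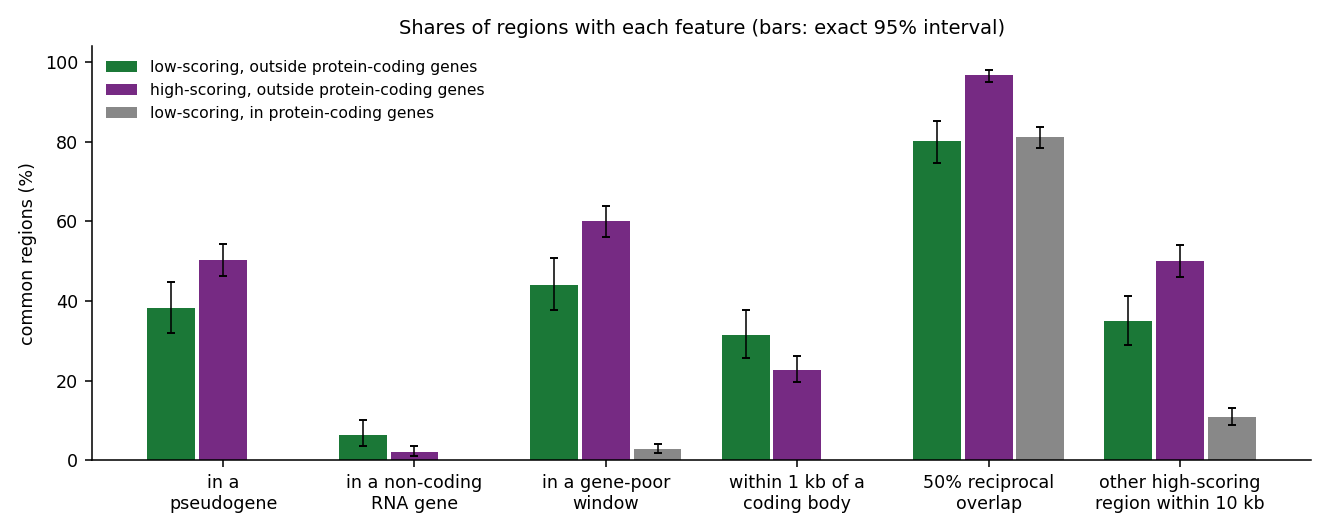
Percent of common regions with each feature, with exact 95% intervals as error bars, for low-scoring regions outside protein-coding genes (green), high-scoring ones outside (purple) and low-scoring ones in protein-coding genes (grey). Grey bars are left out for pseudogenes, non-coding RNA genes and nearness to coding bodies, which a midpoint inside a coding body fixes. The green bars are 38.2% for pseudogenes and 44.1% for gene-poor windows, both under the purple ones.

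Low-scoring regions outside protein-coding genes differed among themselves by chromosome setting, with 105 in gene-poor windows and 133 on the arms. Per Mb of sequence outside protein-coding bodies, there were 5.99 in gene-poor windows and 3.58 on the arms. Pseudogenes held 52.4% of those in gene-poor windows and 27.1% of those on the arms, where pseudogenes make up 40.1% and 8.93% of the bases outside protein-coding bodies. Those in gene-poor windows were narrower, with a median width of 915 bp (quartiles 784 to 1162), against 1350 bp on the arms (quartiles 1077 to 1921). Their median distance to a protein-coding body was 7951 bp in gene-poor windows and 1185 bp on the arms. A longer distance goes with how gene-poor windows were defined, and high-scoring regions outside protein-coding genes had 9026 and 1509 bp. A high-scoring region lay within 10 kb of 57 of 105 in gene-poor windows (54.3%, exact 95% interval 44.3 to 64.0) and of 26 of 133 on the arms (19.5%, interval 13.2 to 27.3). These contrasts were made after the values were seen and were not tested.

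**Figure D3:**
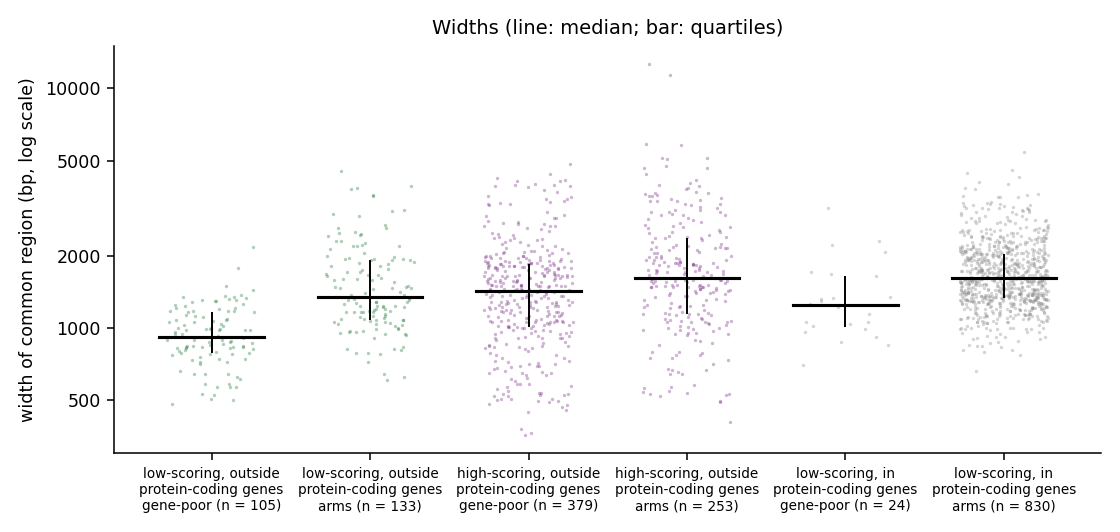
Width of each common region on a log scale, with the median (horizontal line) and quartiles (vertical bar), for 3 classes of region in gene-poor windows and on chromosome arms. The low-scoring regions outside protein-coding genes have medians of 915 bp in gene-poor windows and 1350 bp on the arms, against 1423 and 1620 bp for the high-scoring ones outside and 1241 and 1607 bp for the low-scoring ones in protein-coding genes.

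Pseudogenes were the largest annotated group. The 91 regions lay in 91 different pseudogenes, 1.88% of the 4843 in the table, and 12 of these are annotated as transcribed. The share was 1.82% in gene-poor windows (55 of 3027) and 1.98% on the arms (36 of 1816). Pseudogenes that held a region had a median length of 2982 bp, against 1686 bp for all pseudogenes, and a longer body has more room for a midpoint. The region covered a median of 29.9% of its pseudogene (6.91 to 100%).

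The highest-ranked pseudogene region, by the lower of its score percentiles in both lists, was at AT1G43880. It lay at chromosome 1, 16629422 to 16629921 (TAIR10), scored 85.98 in replicate 1 and 83.76 in replicate 2, and was 500 bp wide with a high-scoring region 493 bp away. AT5G27965 followed at chromosome 5, 9998416 to 9999388, with scores of 78.28 and 77.36. Next came AT3G31540, at chromosome 3, 12843214 to 12844291, with 76.75 and 76.12. These regions were ranked on both scores, which the rule kept under 100.

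AT3G17110, a transcribed pseudogene, was covered whole by a region on the arm of chromosome 3, 5837307 to 5839021, with scores of 99.87 and 75.65. AT3G43575, at chromosome 3, 15493394 to 15494735, scored 67.94 and 85.31. Within 10 kb of each other lay 15 pairs of neighbouring regions, in 4 of which both were in pseudogenes. SADHU1-3 (AT5G28626), named after its values were seen, belongs to a family of retroposons and was in such a pair, at chromosome 5, 10632319 to 10633295, with scores of 21.41 and 41.66.

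Non-coding RNA genes held 15 of the regions, which contained 17 of the 5612 such genes in the table (0.303%) at their midpoints. By the annotation, 9 regions were in long non-coding RNA genes, 4 in genes of the unspecified class ncRNA, 1 in a miRNA gene and 1 in a miscellaneous RNA gene. None was in any of the 625 tRNA, 287 snoRNA or 82 snRNA genes. All regions but those at AT1G32172 and AT4G13495, named after their values were seen, covered an RNA gene at their midpoint whole. The region width had a median of 1287 bp here, while the covered genes were mostly shorter.

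AT2G04885 ranked highest among these. Its region at chromosome 2, 1926718 to 1928025, scored 45.61 in replicate 1 and 52.06 in replicate 2. AT1G04387 scored 47.48 and 40.09 at chromosome 1, 1543291 to 1544551. GUT15 (AT2G18440), a gene known for the fast decay of its RNA, is 2299 bp long and lay inside a region at chromosome 2, 7994717 to 7997318, that scored 36.44 and 65.65. These 3 regions were on chromosome arms.

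AT1G07783 scored 34.77 and 57.43 at chromosome 1, 19373469 to 19374943. The overlapping genes AT2G05465 and AT2G05485 shared a region that scored 43.81 and 34.37 at chromosome 2, 3936352 to 3937471. MIR160a (AT2G39175) makes a miRNA that targets mRNAs of auxin response factors. Its region at chromosome 2, 16339641 to 16340971, scored 28.68 and 20.52, so its replicate 2 peak was near the lower end of the list.

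Regions in no gene but within 1 kb of a protein-coding body numbered 68, and they were the wider ones, with a median of 1371.5 bp against 1070.5 bp for the 64 farther ones. Of the 68, 35 touched 1 protein-coding body with an edge, 21 touched more than 1, and 12 touched none. Over all 238 regions, 58 (24.4%) touched a protein-coding body. Protein-coding genes with a body within 1 kb of any of the 238 regions numbered 169 of 27432 (0.616%). Without strand in the table, an edge on a gene could not be assigned to its start or end.

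The region ranked highest next to a coding gene lay beside ZIP5 (AT1G05300), a metal transporter of the ZIP family. At chromosome 1, 1546786 to 1549859, it scored 90.51 in replicate 1 and 84.58 in replicate 2, and it overlapped the body by 1064 bp. It was followed by a region near AT5G45469, at chromosome 5, 18420400 to 18421485, with scores of 87.35 and 74.69. A region at chromosome 2, 18606888 to 18610486, scored 84.74 and 71.18 and overlapped SPX3, a gene of phosphate starvation signalling, by 966 bp. The same region overlapped AT2G45135 by 1663 bp. Another, at chromosome 1, 22775063 to 22776116, scored 67.48 and 70.7 and lay 342 bp from the body of TPS14, a terpene synthase gene. The fifth, at chromosome 4, 15676170 to 15680081, scored 79.13 and 64.99 and overlapped ENODL4, an early nodulin-like gene, by 1006 bp. It overlapped AT4G32480 by more, 1738 bp. All 5 of these regions were on chromosome arms.

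Other genes with a symbol were overlapped by a low-scoring region whose midpoint lay outside every coding body. Only the midpoint sets the class, and some such regions, the one at LRX2 below among them, lay mostly on coding bodies. PHT3;1, a mitochondrial phosphate transporter, was overlapped by 462 bp by a region with scores of 69.89 and 55.39 at chromosome 5, 4530067 to 4531104. PAP26, a purple acid phosphatase, was overlapped by 281 bp by a region with 38.11 and 38.01 at chromosome 5, 13111376 to 13112681. SUS3, a sucrose synthase, had a region with 42.25 and 54.59 at chromosome 4, 994047 to 994953, only 448 bp from a high-scoring region. APT4, an adenine phosphoribosyltransferase, had one with 44.57 and 30.35 at chromosome 4, 7374833 to 7376283. These genes were picked by rank and symbol, so they are no test of a shared role.

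LRX2, a leucine-rich extensin of the cell wall, was overlapped by 2201 bp by the widest region of all, 4507 bp at chromosome 1, 23113093 to 23117599. The same region overlapped AT1G62450 by 2059 bp. Replicate 1 scored this region 47.72 and replicate 2 scored it 99.5. LST8-2 had 1237 bp of overlap with a region at chromosome 2, 9375024 to 9378118, that scored 53.59 and 52.96. That region also covered 1179 bp of AT2G22050. STRS1, an RNA helicase gene, was overlapped by 632 bp by a region at chromosome 1, 11478984 to 11480394, that scored 61.84 and 37.64 and also covered 522 bp of AT1G31960. SEN1 was overlapped by 42 bp by a region at chromosome 3, 16731187 to 16732581, with 40.58 and 72.59, which covered 325 bp of AT3G45580. The antenna gene CAB2 (AT1G29920), for a chlorophyll a/b-binding protein, was overlapped by 589 bp by a region at chromosome 1, 10473958 to 10475244, with 45.01 and 93.46. Its neighbour CAB3 lay 455 bp away, and CAB2 and CAB3 carry no light-harvesting complex symbol in the table.

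Genes with the symbols of large regulatory and metabolic families lay near these regions about as rarely as protein-coding genes in general. Of 934 genes in 18 families defined by symbol, 4 were within 1 kb (0.428%), against 0.616% of all protein-coding genes. MYB factors gave 1 of 120, MADS-box genes 1 of 96 and cytochrome P450 genes 2 of 229, while the other 15 families gave 0. Among the families at 0 were WRKY with 67 genes, UGT with 58 and the 81 genes with a NAC number as symbol. Every family leaves out genes under other symbols, such as CAB2 and CAB3 for the light-harvesting complex. A count of 0 therefore covers only the genes with that symbol. MYB24, a regulator of stamen development, lay 628 bp from a region with scores of 23.88 and 22.62. AGL44, known as ANR1 in nitrate responses of roots, was overlapped by 654 bp by a region with 44 and 25.85.

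CYP71A16 was overlapped by 970 bp by a region that scored 69.05 and 29.56, and CYP71A20 by 241 bp by one that scored 23.45 and 37.78. CUC2 and FEZ, named after their values were seen, are NAC genes whose symbols kept them out of the counted family. CUC2, a gene of organ boundaries, had a region 515 bp away that scored 20.16 and 74.21, and the root cap regulator FEZ was overlapped by 402 bp by a region with 23.35 and 22.7. None of SHL, EBS or the flowering genes FT, SOC1 and FLC had such a region within 1 kb. The nearest lay 6.89 kb from EBS, 108 kb from SOC1, 277 kb from FT, 1350.6 kb from FLC and 2537.5 kb from SHL.

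Regions in no gene whose midpoint lay beyond 1 kb of protein-coding bodies numbered 64, with a median distance of 3788.5 bp from midpoint to body. The edge of 16 of them came within 1 kb of a body, and 1 touched one. Over all 238 regions, 46 (19.3%) had a midpoint more than 10 kb from a protein-coding body. The top region of this kind, at chromosome 3, 12255359 to 12256197, scored 85.22 in replicate 1 and 87.91 in replicate 2, and its midpoint lay 15841 bp from the nearest body. Another at chromosome 1, 20410749 to 20413018, scored 82.99 and 95.82 and touched AT1G54680 by 7 bp. A region at chromosome 5, 11802096 to 11803185, scored 80.9 and 89.78 and was the farthest of the 238 from a protein-coding gene, at 166003 bp from its midpoint to AT5G30520. Those at chromosome 2, 3232269 to 3233437, and chromosome 4, 5056887 to 5057726, scored 81.14 and 69.1, and 66.02 and 65.64. Of these 5 regions, the one at chromosome 1 was on an arm and the others were in gene-poor windows.

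**Figure D4:**
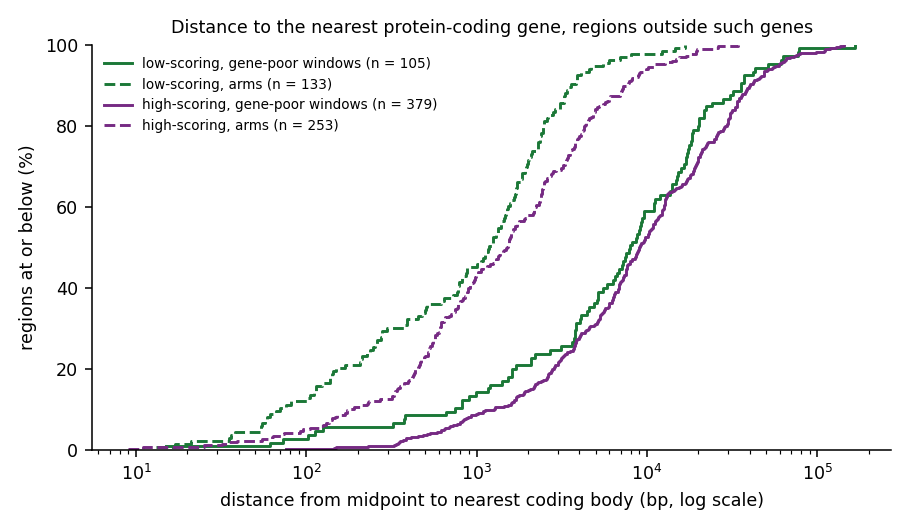
Cumulative percent of regions outside protein-coding genes at or below each distance (log scale, bp) from midpoint to nearest coding body, for low-scoring (green) and high-scoring (purple) regions in gene-poor windows (solid) and on arms (dashed). Median distances were 7951 bp for low-scoring and 9026 bp for high-scoring regions in gene-poor windows, and 1185 bp and 1509 bp on the arms.

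By median gap, low-scoring regions outside protein-coding genes lay nearer to a high-scoring region than those inside, but farther than high-scoring regions outside. The gap from a low-scoring region outside protein-coding genes to the nearest high-scoring region, inside or outside protein-coding genes, had a median of 25183 bp, against 9995.5 bp from a high-scoring region outside to the nearest other one, and 74210.5 bp for low-scoring regions in protein-coding genes. A high-scoring region lay within 10 kb of 83 of 238 (34.9%, exact 95% interval 28.8 to 41.3). The share was 50% (interval 46.0 to 54.0) for the high-scoring regions outside and 10.9% (interval 8.88 to 13.2) for the low-scoring regions in protein-coding genes. The last class had only 2.81% of its regions in gene-poor windows. On the arms the shares were 19.5%, 39.9% and 10.6% in the same order. In gene-poor windows they were 54.3%, 56.7% and 20.8% (5 of 24). These shares were not tested.

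The replicates' peaks matched less well in low-scoring than in high-scoring regions outside protein-coding genes. A pair of peaks covering at least 50% of each other was present in 80.3% of the low-scoring regions (191 of 238), against 96.7% of the high-scoring ones (611 of 632), a difference of -16.4 points (odds ratio 0.140, two-sided Fisher's exact test, adjusted p = 3.71e-13). The rule had already used score and an overlap of 1 bp, so this difference is tied to how the classes were made. Low-scoring regions were also narrower, with a median width of 1152 bp against 1499.5 bp. Regions were treated as independent here too, although all share both libraries. Against low-scoring regions in protein-coding genes, the share was 80.3% compared with 81.1% (693 of 854), a difference of -0.895 points (odds ratio 0.944, exact adjusted p = 0.780). On the arms alone the shares were 69.9% and 80.7% (exact adjusted p = 0.0114). With the midpoint of the intersection, on arms and gene-poor windows together, they were 83.3% and 80.3% (exact adjusted p = 0.343). The midpoint of a merged region depends on how its peaks overlap, so this comparison too is tied to how the classes were made. Among the low-scoring regions outside protein-coding genes, reciprocal overlap was present in 98 of 105 in gene-poor windows (93.3%, interval 86.7 to 97.3) and 93 of 133 on the arms (69.9%, interval 61.4 to 77.6).

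Scores of both lists were weakly related within the class, which the rule confines to scores under 100. Across the 238 regions, which share both libraries, Spearman's rho was 0.36, with 0.36 in gene-poor windows and 0.35 on the arms. It was 0.97 over the 632 high-scoring regions outside and 0.30 over the 854 low-scoring regions in protein-coding genes. The median score was 39.51 in replicate 1 and 41.585 in replicate 2. Both scores were within 2-fold of each other in 196 regions (82.4%) and both were under 50 in 109 (45.8%). Replicate 1 had the higher score in 128 regions (53.8%).

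The most uneven region lay in AT4G08765, at chromosome 4, 5592309 to 5593367, with 98.64 in replicate 1 and 20.44 in replicate 2, a ratio of 4.83. The region near CUC2 followed with a ratio of 3.68. Just inside the threshold were AT3G17110 with a best score of 99.87, the region at LRX2 with 99.5 and AT4G08765 with 98.64. Just outside were 3 regions on chromosome 5, each with 100 in replicate 2 and with 67.42, 78.06 and 55.8 in replicate 1, at 12771339 to 12771896, 12647258 to 12647722 and 11799947 to 11800454.

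**Figure D5:**
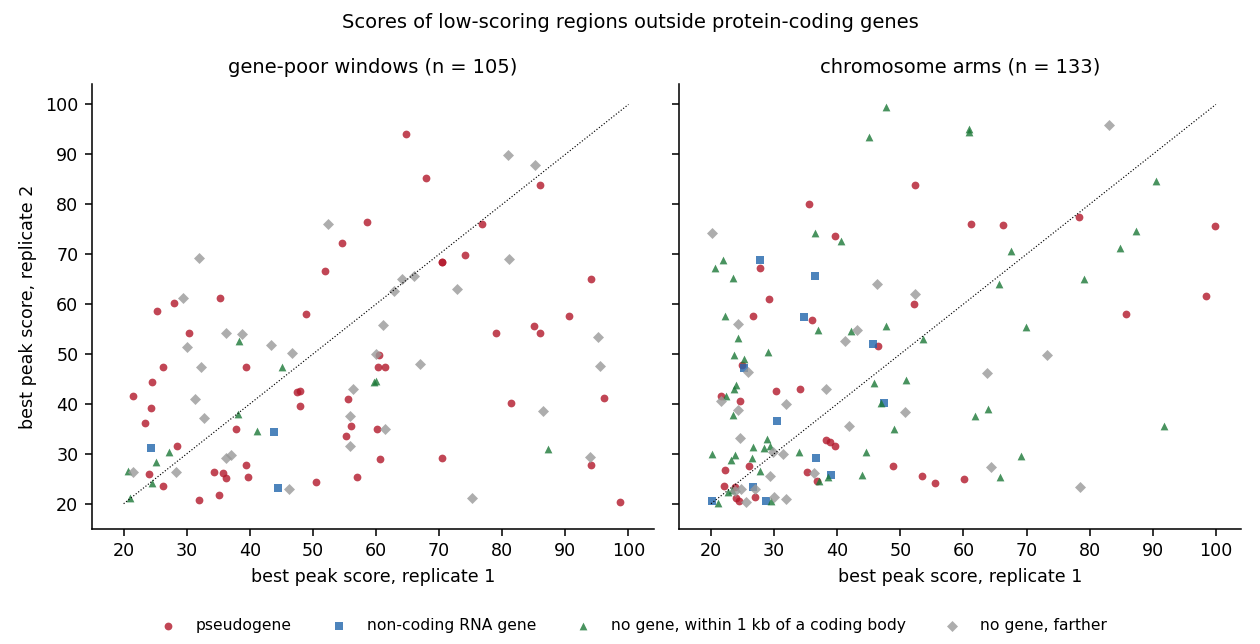
Best peak score of each low-scoring region outside protein-coding genes in replicate 1 (horizontal) and replicate 2 (vertical), in gene-poor windows (left, n = 105) and on chromosome arms (right, n = 133), with the dotted line marking equal scores. Colours and shapes give the place of the midpoint. Points lie on both sides of the line in both settings, with replicate 1 higher in 128 of 238 regions.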

How the data were processed

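ChIP-seq peak lists of 2 ChIP samples were used. Both inputs were not analysed here. Samples were grouped and numbered by their titles. Per the submitters' processing notes, the authors used Bowtie2 2.2.8, SAMtools 1.3 and MACS 1.4 with the TAIR10 build. Settings, filters and the control are not given in the sources used here. Each deposited list belonged to 1 sample, so peaks were called per sample. The deposited score is the authors' own. By MACS 1.4 convention it is a transformed p-value, which no header states. Scores were used to rank and filter within a list, and both scores of a region were set side by side as a description only. How the authors placed reads from repeated sequence is not given in the sources used here, which bears on pseudogenes and gene-poor windows.

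Nuclear peaks overlapping by 1 bp were merged, and midpoints were placed by RefSeq gene bodies of TAIR10.1, with no gene coordinate printed. The share of all 2186 midpoints in coding bodies was 56.8% in place, and 28.9% and 29.7% after shifts of -1500 and 1500 bp. Shares were compared by Fisher's exact test in SciPy 1.17.1, under Python 3.11.15 and pandas 2.3.3, with Benjamini-Hochberg adjustment over 5 tests and exact (Clopper-Pearson) 95% intervals. The merging and counting were checked on simulated data. Alternatives were 50% reciprocal overlap, thresholds of 50 and 200, peaks of at least 30, no overlap with a coding body, midpoints of the intersection, the arms alone and each list alone.

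Named regions were the 5 highest in each place by the lower score percentile, small RNA genes, regions beside the threshold, up to 12 coding genes with a symbol touched by an edge, the widest and the farthest, family members near a region, and 5 flowering and SHL genes. Others are marked as named after their values were seen. The regions, lists and tests were chosen with earlier results of these data known.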

Additional observations from a re-analysis of the deposited data

Results flagged for a closer look

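Signal outside the nuclear regions was present on the mitochondrial sequence, which entered no comparison. Replicate 1 listed 10 mitochondrial peaks, with scores of 37.52 to 3100 and a median of 401.38. Replicate 2 listed 7, with scores of 20.87 to 3100 and a median of 641.24. No input value was analysed beside them.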

How the results depend on the processing

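The 238 regions became 109 with a threshold of 50, 126 with peaks of at least 30, and 584 to 606 from a single list. They became 354 with a threshold of 200, 189 with 50% reciprocal overlap, 180 with no overlap with a coding body and 228 with the intersection. The pseudogene difference kept its direction throughout but did not pass with 50% reciprocal overlap (-6.28 points, exact adjusted p = 0.203), a threshold of 200 (-7.07, p = 0.0570), no overlap with a coding body (-6.67, p = 0.139) or the arms alone (-9.30, p = 0.0928). That in gene-poor windows did not pass with reciprocal overlap (-8.28, exact adjusted p = 0.157) or peaks of at least 30 (-6.79, p = 0.277). That in nearness to coding bodies did not pass with reciprocal overlap (3.68, exact adjusted p = 0.320), 200 (6.26, p = 0.0570), at least 30 (4.20, p = 0.379), no overlap (4.12, p = 0.115) or the arms (1.63, p = 0.829). From a single list, the differences were -21.9 to -17.6, -30.0 to -28.4 and 17.6 to 19.8 points. Reciprocal overlap against the high-scoring regions passed in all 6 alternatives, each of which also built its classes from score and overlap. Against low-scoring regions in coding genes it reversed with 200 (1.82, exact adjusted p = 0.457) and with the intersection (3.01, p = 0.343), and passed on the arms (-10.8, p = 0.0114). The causes were not tested. Read depth is unknown. No paired analysis was possible because the ChIP samples form 1 group and the inputs had no values here.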

Other observations

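About as many low-scoring peaks outside protein-coding genes appeared in 1 list alone as in both. Of 584 such peaks of replicate 1, 271 overlapped a peak of the other list (46.4%, exact 95% interval 42.3 to 50.5), and of 606 in replicate 2, 306 did (50.5%, interval 46.4 to 54.5). Low-scoring peaks in protein-coding genes had like shares, 47.3% in replicate 1 (958 of 2025) and 50% in replicate 2 (937 of 1874). For peaks of at least 100 outside protein-coding genes the share was 99.7% in each list. The 313 peaks of replicate 1 alone lay in gene-poor windows in 16.9% of cases and in pseudogenes in 23.6%, and the 300 of replicate 2 alone in 17.3% and 18.3%. Their median scores were 25.13 and 24.695. These shares were not tested against those of the common regions.

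Some scores recurred exactly. Counting scores of at least 30 and under 100 shared by 4 or more nuclear peaks of a list, a limit chosen after seeing the data, 23 of the 238 regions carried such a score (9.66%, exact 95% interval 6.23 to 14.1). Of these 23, 21 lay in gene-poor windows and 15 in pseudogenes, and their median width was 621 bp, against 1174 bp for the other 215. Among low-scoring regions in protein-coding genes, 15 of 854 (1.76%) carried one, and among the regions outside protein-coding genes that met neither score condition, 9 of 74 (12.2%, exact 95% interval 5.71 to 21.8) did. Regions in AT3G30821 (chromosome 3, 12524666 to 12525247) and AT5G33381 (chromosome 5, 12611827 to 12612332) both scored 70.38 in replicate 1 and 68.45 in replicate 2. The score of 47.44 in replicate 2 was shared by 9 peaks, 5 of them in these regions.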
